A study of Homo sapiens with 8 samples.

Results

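The Y RNA rows described here are those of a small RNA count table whose name starts with RNY. They hold 44 of 2962 features: the 4 genes RNY1, RNY3, RNY4 and RNY5, and 40 numbered copies. By parent, 9 copies belong to RNY1, 11 to RNY3, 20 to RNY4 and 0 to RNY5. A further 423 rows named Y_RNA, which carry no parent in their name, were left out. The cells were HEK293, an established human embryonic kidney line. They were transfected through lipid (Lipofectamine RNAiMax) with 50 nM of a synthetic RNA and collected 48 h later. In 4 libraries that RNA was a scramble control mimic, and in the other 4 it was tRNA-Asp-GTC-3'tDR, a mimic of a fragment (tDR) from the 3′ end of that transfer RNA. Total RNA was taken up in TRIzol for all 8 libraries, which were made by ordered two-template relay (OTTR-seq), where adapters are added during reverse transcription. Nothing in the labels tells separate cultures from repeats of 1 culture, so each p-value is set against library-to-library spread that could be purely technical.

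Y RNAs are short noncoding RNAs made by RNA polymerase III. Their ends pair into a stem that binds the Ro60 protein, and the terminal run of T in the gene, U in the RNA, ends transcription and binds the La protein. Y RNAs are also known to be cut into fragments from their 5′ and 3′ ends, and the human genome carries many retrotransposed copies of them. The series title places the transfected fragment among hypoxia-responsive RNAs and RNA autophagy, and for the Y RNAs the question is which members change with that fragment added.

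The counts summed to between 4016295 and 10246336 per library, and 0.174 to 0.227% of them fell on the 4 Y RNA genes. The 2 rows that are not genes, scr and scr2, together held 22448 to 58193 counts in the scramble libraries and 60 to 269 in the tDR libraries. Of 6 microRNAs listed for HEK293 cells 6 had counts, with summed levels of 1002 to 1505 CPM (counts scaled to one common library total) in the scramble libraries and 578 to 1038 CPM in the tDR libraries. Of 15 microRNAs of blood, liver, muscle, endothelium and neural cells, 8 had counts, summing to 51.2 to 77.3 CPM and 44.5 to 76.5 CPM. Those 8 were hsa-miR-223-3p, hsa-miR-1-3p, hsa-miR-133a-3p, hsa-miR-126-3p, hsa-miR-126-5p, hsa-miR-124-3p, hsa-miR-9-5p and hsa-miR-128-3p. Those without counts were hsa-miR-122-5p, hsa-miR-142-3p, hsa-miR-142-5p, hsa-miR-451a, hsa-miR-144-3p, hsa-miR-150-5p and hsa-miR-206. Of 7 microRNAs of differentiated kidney epithelium 3 had counts, and the 4 without were of the miR-200 family. The 3 summed to 11.3 to 16.4 CPM in the scramble and 7.68 to 12.5 CPM in the tDR libraries. The part of these markers in the Y RNA values was not tested.

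The Y RNA genes lie next to each other on chromosome 7 (GRCh38), with RNY5 at 148941488 to 148941571, RNY4 at 148963315 to 148963410 and RNY1 at 148987136 to 148987248. RNY1 and RNY4 do not lie inside another annotated gene of GENCODE release 29; the RNY5 position is that of RefSeq. The sequences of RNY1 and RNY4 are shown so that the copies can be set beside their parents. They come from the GENCODE release 29 transcripts (GRCh38), written as DNA from 5′ to 3′, and the capitals mark the 11 leading bases that both genes share.
RNY1: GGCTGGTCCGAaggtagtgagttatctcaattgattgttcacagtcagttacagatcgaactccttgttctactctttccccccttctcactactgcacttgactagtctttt
RNY4: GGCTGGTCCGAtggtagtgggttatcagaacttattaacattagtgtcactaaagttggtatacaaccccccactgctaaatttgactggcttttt
Over a global alignment RNY1 and RNY4 were 63.7% identical.

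The 3 copies below begin with the 5′ end of RNY4, and the capitals mark the leading bases identical to it. They run to 42 bases in RNY4P10, 32 in RNY4P7 and 30 in RNY4P20.
RNY4P10: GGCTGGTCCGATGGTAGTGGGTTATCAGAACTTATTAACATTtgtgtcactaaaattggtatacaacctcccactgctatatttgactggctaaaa
RNY4P7: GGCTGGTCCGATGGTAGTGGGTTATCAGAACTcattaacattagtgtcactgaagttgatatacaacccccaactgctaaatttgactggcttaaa
RNY4P20: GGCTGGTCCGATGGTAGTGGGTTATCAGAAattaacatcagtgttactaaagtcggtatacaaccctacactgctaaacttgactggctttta
In the next 3 copies the 5′ end differs, and the capitals mark the longest stretch identical to RNY4. It covers bases 3 to 42 of RNY4 in RNY4P27, 11 to 42 in RNY4P9 and 11 to 38 in RNY4P16, counted from 1 at the 5′ end of RNY4.
RNY4P27: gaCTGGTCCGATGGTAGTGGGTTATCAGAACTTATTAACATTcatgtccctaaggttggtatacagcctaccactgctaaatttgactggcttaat
RNY4P9: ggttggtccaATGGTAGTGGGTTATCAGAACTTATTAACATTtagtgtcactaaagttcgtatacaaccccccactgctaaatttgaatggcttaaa
RNY4P16: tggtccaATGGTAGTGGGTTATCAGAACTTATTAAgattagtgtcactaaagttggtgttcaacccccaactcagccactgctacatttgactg
RNY4P6 and RNY4P14 hold a like inner stretch, again in capitals, over bases 11 to 39 and 10 to 30 of RNY4, and are shown because neither was called in the test given next.
RNY4P6: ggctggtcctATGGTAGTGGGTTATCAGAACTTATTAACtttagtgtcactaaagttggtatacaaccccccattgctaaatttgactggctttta
RNY4P14: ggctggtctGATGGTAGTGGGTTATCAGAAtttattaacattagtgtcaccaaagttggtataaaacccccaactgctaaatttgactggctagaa

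After the tDR mimic RNY4 and 6 of its 20 copies were called higher, together with 1 of the 9 copies of RNY1. No tested RNY row was called lower. Some of these rows may share reads, as given below. RNY1, RNY3, RNY5 and the 7 tested copies of RNY3, of 11, did not pass the test. The test was edgeR's quasi-likelihood test on the raw counts of all features with Benjamini-Hochberg adjustment, and a row was called at an adjusted p below 0.05. Of the 44 members, 34 passed the filter on low counts. The 10 that did not had at most 15 counts in any library. Of the 34, 8 were called higher and 0 lower. Over all 1761 features tested, 5.34% were called higher, 1.36% lower and 6.7% in either direction. The median log2 fold change was 0.091 over the 34 members and 0.020 over all features. At an unadjusted p below 0.05 the lower RNY rows were 2, RNY3P7 and RNY3P13, while DESeq2 called 0 lower and 8 higher, beside 7.38% of all features higher, and limma-voom called 0 lower and 8 higher, beside 5.45%.

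Under some other settings fewer members were called. The number was 3 under total-count scaling, where 3.07% of all features were called higher, and those 3 were RNY4, RNY4P10 and RNY4P7. With rows of near-equal counts, which may share reads, taken once, it was 6 of 30 tested, 5 of them RNY4 and its copies (4.65%). With edgeR's TMM scaling factors taken without Y RNA rows it was 6 (3.75%). These 2 scalings moved all features. Their median log2 fold change was -0.13 under total counts and -0.11 without Y RNA rows, against 0.020 in the fit above. Removing scramble library 2 left 4 calls (2.84% of all features), removing scramble library 3 left 5 (3.15%) and removing tDR library 2 left 4 (3.18%). The second tDR library was the highest of the 8 libraries in 8 of the 8 called members, and in 8 of the 26 other tested members.

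**Figure D1:**
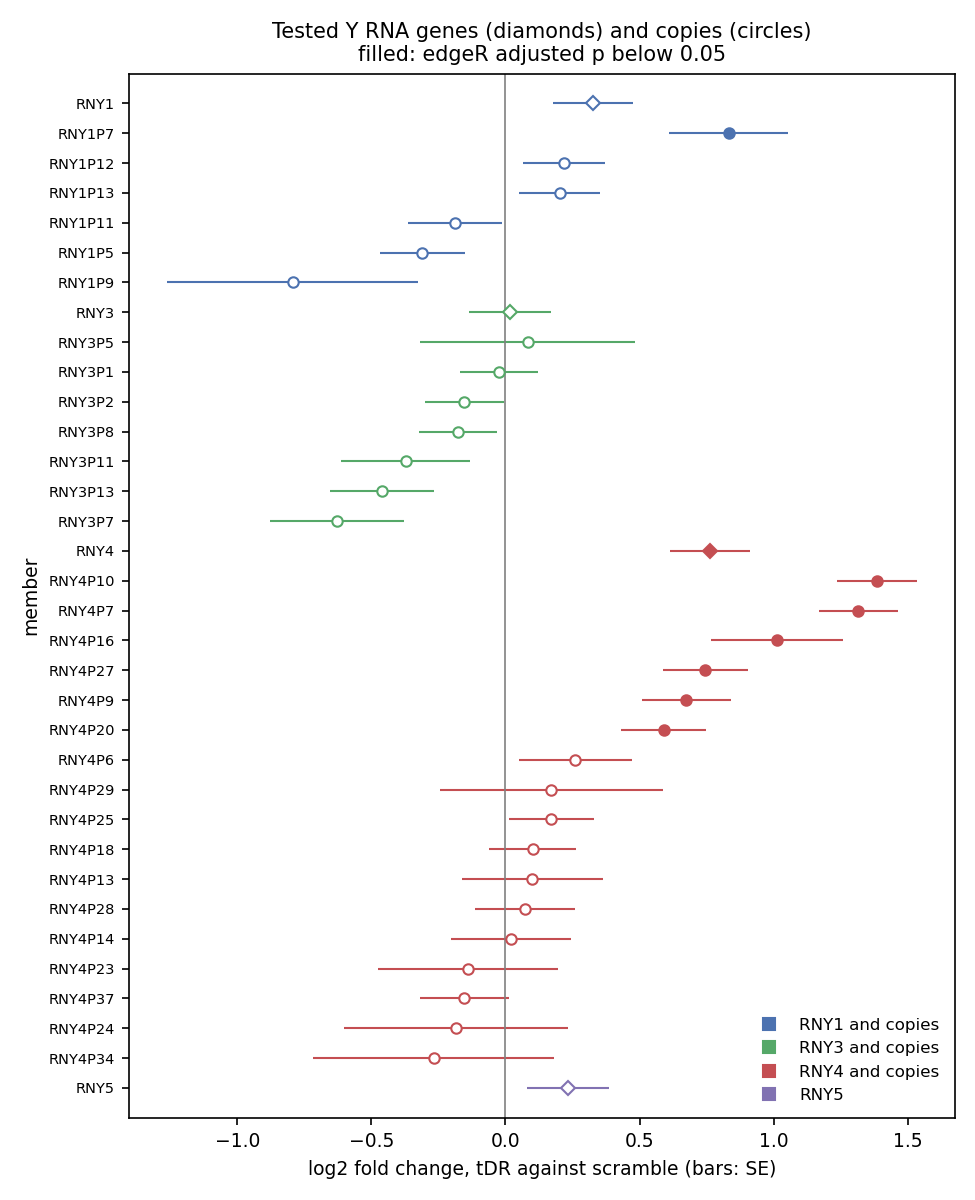
Log2 fold change between tDR and scramble libraries (x axis) for each of the 34 tested Y RNA members (y axis), with its SE as a bar. Diamonds are genes, circles are copies, colours are parents and filled symbols passed edgeR at an adjusted p below 0.05. The filled symbols are RNY4, 6 of its copies and RNY1P7, all to the right of 0.

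RNY4, the gene of the Y4 RNA, stood at 464, 524, 520 and 431 CPM in scramble libraries 1 to 4 and at 779, 907, 825 and 776 CPM in tDR libraries 1 to 4 (scaled to library size with edgeR's TMM factors, as are all CPM values here). The lowest tDR library was above the highest scramble library, so the groups did not overlap. The means were 485 ± 44.9 and 822 ± 60.9 CPM (SD, n = 4 each), which is 0.76 on the log2 scale (SE 0.15, adjusted p = 0.0028 by edgeR). The call held under each of the 20 alternative settings, with an adjusted p of 0.00252 to 0.0164 when 1 library was left out. In bulk RNA a change per cell and a change in the mix of cells cannot be told apart.

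RNY1, the gene of the Y1 RNA, had 488, 408, 482 and 428 CPM in the scramble libraries and 526, 626, 558 and 555 CPM in the tDR libraries. The groups did not overlap, a pattern that 7.78% of all tested features showed in the higher direction. The log2 fold change of 0.33 (SE 0.15) nevertheless did not pass edgeR (unadjusted p = 0.0396, adjusted p = 0.211). The adjusted p was 0.0505 by DESeq2 and 0.173 by limma-voom, and RNY1 stayed uncalled under each of the 20 alternative settings.

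RNY5, the gene of the Y5 RNA, had 427, 330, 392 and 339 CPM in the scramble libraries and 455, 480, 440 and 374 CPM in the tDR libraries. The groups overlapped, with tDR library 4 below scramble libraries 1 and 3. Its log2 fold change was 0.23 (SE 0.15) with an edgeR adjusted p of 0.408.

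RNY3, the gene of the Y3 RNA, had 474, 442, 440 and 356 CPM in the scramble libraries and 380, 433, 460 and 457 CPM in the tDR libraries. Here the groups covered nearly the same range. The log2 fold change of 0.016 (SE 0.15, adjusted p = 0.966 by edgeR) took either sign, depending on the scaling and on which library was left out.

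**Figure D2:**
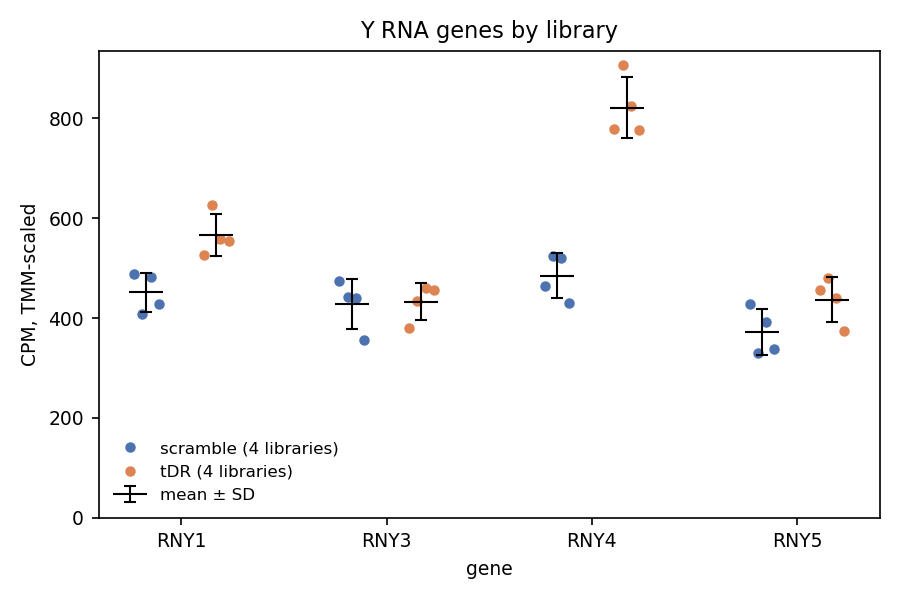
CPM (y axis, from 0) of the 4 Y RNA genes (x axis) in each of the 4 scramble and 4 tDR libraries, with the mean and SD of each group. The tDR libraries of RNY4 lie between 776 and 907 CPM, above all scramble libraries, while the groups overlap for RNY3 and RNY5.

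Between genes, levels were compared per 100 bases of gene length. In the scramble libraries the order was RNY4 at 505 ± 46.8, RNY5 at 443 ± 54.5, RNY3 at 419 ± 49.3 and RNY1 at 399 ± 34.9 CPM per 100 bases (SD, n = 4 each). Each neighbour in that order overlapped the next over its libraries. In the tDR libraries the order was RNY4 at 856 ± 63.4, RNY5 at 521 ± 53.8, RNY1 at 501 ± 37.2 and RNY3 at 424 ± 36.5 CPM per 100 bases. The lowest RNY4 library, at 808, then stood above the highest library of any other gene, at 571, whereas RNY5 overlapped both RNY1 and RNY3. Reads from fragments need not scale with gene length, and fragment lengths were not analysed here.

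Whether Y4 differed from the other genes in its change was tested with the ratio of 2 counts in the same library, which no scaling can alter. The 6 gene pairs were compared by an exact two-sided permutation test over libraries, whose smallest possible p with 4 against 4 is 0.0286, and adjusted by Benjamini-Hochberg over the 6 pairs. At that smallest p a pair passes only when several other pairs also reach it, and the pairs share genes.

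RNY4 gained on each of the other genes. The RNY4 to RNY3 ratio was 0.98, 1.19, 1.18 and 1.21 in the scramble libraries and 2.05, 2.09, 1.79 and 1.70 in the tDR libraries. Its log2 mean went from 0.18 ± 0.14 to 0.93 ± 0.15 (SD, n = 4 each), a difference of 0.74 (exact permutation p = 0.0286, adjusted p = 0.0429). For RNY4 to RNY5 the log2 difference was 0.53 and for RNY4 to RNY1 it was 0.43, each with the same exact p and adjusted p and with groups that did not overlap. The RNY4 share of the 4 genes' counts went from 25.05, 30.7, 28.4 and 27.7% in the scramble libraries to 36.4, 37.1, 36.1 and 35.9% in the tDR libraries.

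RNY3 fell relative to RNY1 and RNY4. Its ratio to RNY1 was 0.971, 1.083, 0.913 and 0.832 in the scramble libraries and 0.721, 0.693, 0.824 and 0.824 in the tDR libraries, a log2 difference of -0.31 (exact permutation p = 0.0286, adjusted p = 0.0429). The gap between the nearest libraries of the 2 groups was small, 0.832 against 0.824. The ratios of RNY5 to RNY1 and of RNY5 to RNY3 overlapped between groups, with log2 differences of -0.094 and 0.21 and adjusted p of 0.314 and 0.24 in the exact permutation test. As shares, RNY3 went from 24.6 ± 1.40 to 19.2 ± 1.73% and RNY4 from 28.0 ± 2.34 to 36.4 ± 0.509% (SD, n = 4 each). Each had an exact permutation p of 0.0286 and did not pass when adjusted over the 4 shares (0.0571). The shares add up to the whole, so a higher RNY4 share by itself lowers those of the other genes. The shares of RNY1 and RNY5 differed by -0.95 and -2.05 percentage points (adjusted p = 0.229 and 0.152 in the exact permutation test).

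**Figure D3:**
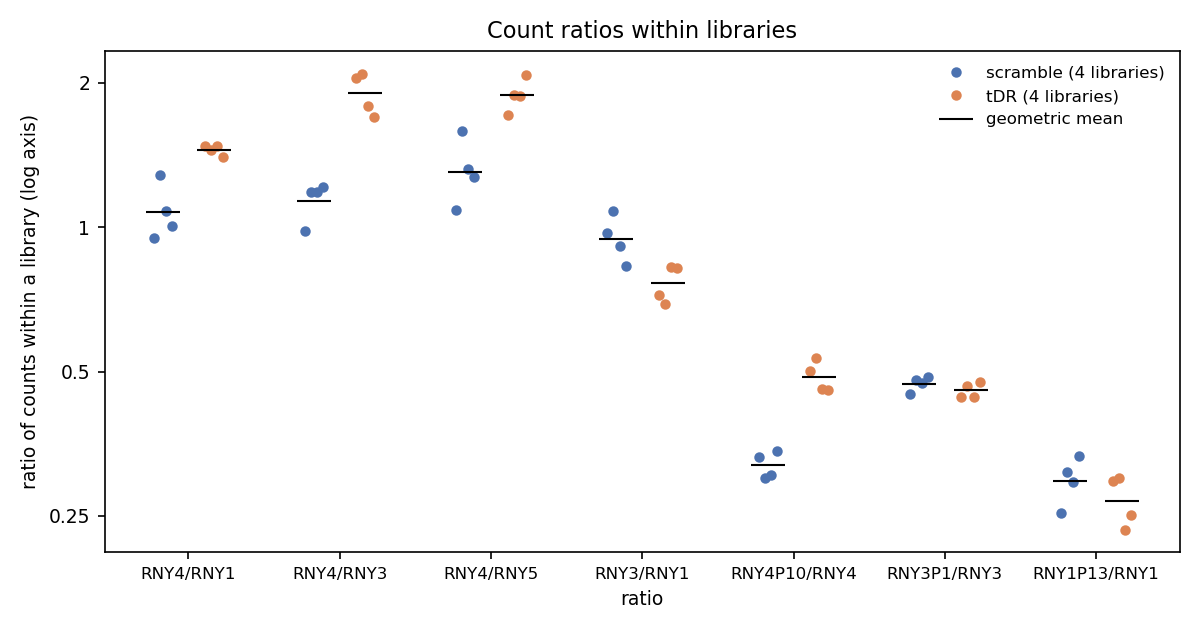
Ratio of counts within a library (y axis, log scale) for 4 pairs of Y RNA genes and 3 pairs of a copy and its gene (x axis), with 4 scramble and 4 tDR libraries each and the geometric mean as a line. RNY4 to RNY3 lies at 0.98 to 1.21 in scramble and 1.70 to 2.09 in tDR libraries, and RNY4P10 to RNY4 at 0.300 to 0.341 and 0.458 to 0.535.

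Of the 20 copies of RNY4, 17 were tested, and 6 were called higher and 0 lower, beside 5.34% and 1.36% of all tested features. At an unadjusted p below 0.05 the number was also 6 in all, and DESeq2 and limma-voom called 0 lower. Their log2 fold changes ran from -0.27 to 1.39 with a median of 0.17. RNY4P10 (chromosome 6, 33199601 to 33199696), which lies in an intron of RXRB on the opposite strand, had 154, 157, 158 and 147 CPM in the scramble libraries and 390, 485, 380 and 356 CPM in the tDR libraries. The lowest tDR library was well above the highest scramble library. The log2 fold change was 1.39 (SE 0.15) with an edgeR adjusted p of 1.3e-05.

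RNY4P7 (chromosome 2, 127798903 to 127798998), on the strand of its host gene WDR33 and intronic to it, carried nearly the same counts as RNY4P10, so both rows may draw on the same reads. It had 155, 164, 163 and 151 CPM in the scramble libraries and 386, 472, 360 and 357 CPM in the tDR libraries. Its log2 fold change was 1.32 (SE 0.15) with an edgeR adjusted p of 1.81e-05, and taken once the pair counts as 1 rise.

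The other 4 called copies were less abundant. RNY4P27 (chromosome 13, 95336106 to 95336201) went from 41.9, 39.9, 48.1 and 49.5 CPM to 81.2, 92.1, 60.4 and 66.6 CPM, which is 0.74 on the log2 scale (SE 0.16, adjusted p = 0.00606 by edgeR). RNY4P9 (chromosome 13, 49908634 to 49908730) went from 23.9, 22.4, 23.6 and 25.2 CPM to 34.2, 47.5, 32.6 and 37.6 CPM, which is 0.67 on the log2 scale (SE 0.16, adjusted p = 0.0166 by edgeR). In both the groups did not overlap, and neither copy lies within another annotated gene.

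RNY4P20 (chromosome 6, 151298841 to 151298933), in an intron of AKAP12 on the opposite strand, had 55.1, 45.3, 45.1 and 45.0 CPM in the scramble libraries and 71.0, 92.6, 65.3 and 58.2 CPM in the tDR libraries. Scramble library 1 and tDR library 4 were close to each other. The log2 fold change was 0.59 (SE 0.16) with an edgeR adjusted p of 0.0287. RNY4P16 (chromosome 1, 234837976 to 234838069), outside other annotated genes, had 4.19, 4.17, 5.62 and 5.92 CPM against 9.40, 13.2, 7.10 and 10.3 CPM, which is 1.01 on the log2 scale (SE 0.25, adjusted p = 0.0166 by edgeR).

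These 4 calls were lost under total-count scaling (edgeR adjusted p from 0.0678 to 0.111), and that of RNY4P20 also with TMM factors taken without Y RNA rows (0.0572). Without single libraries, RNY4P20 lost its call without scramble library 2, 3 or 4 or tDR library 2 (0.0803 to 0.0942), RNY4P9 without scramble library 2 or 3 or tDR library 2 (0.0509 to 0.0605), and RNY4P16 without scramble library 2 or tDR library 2 (0.0767 and 0.0520).

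RNY4P25 (chromosome 1, 151439000 to 151439095), in an intron of POGZ on the opposite strand and the third of the RNY4 copies by mean count, was not called. It had 55.5, 52.4, 66.0 and 61.7 CPM in the scramble libraries and 70.7, 82.8, 55.8 and 55.6 CPM in the tDR libraries, which is 0.17 on the log2 scale (SE 0.16, adjusted p = 0.592 by edgeR). Only tDR libraries 1 and 2 exceeded the scramble range.

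**Figure D4:**
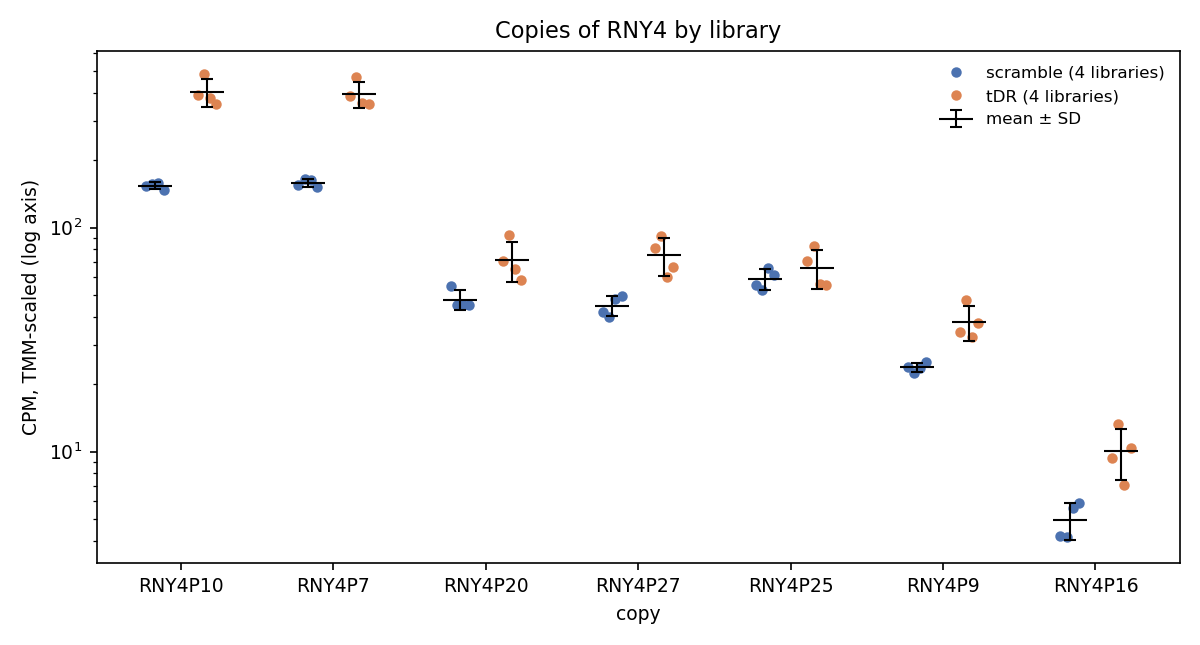
CPM (y axis, log scale) of the 6 called copies of RNY4 and of RNY4P25 (x axis) in the 4 scramble and 4 tDR libraries, with the mean and SD of each group. The groups stand apart in the called copies and overlap in RNY4P25, and the widest gap is that of RNY4P10 and RNY4P7.

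All 6 called copies hold a stretch near the 5′ end of RNY4 unchanged, bases 11 to 30. The first 30 bases of RNY4 occur without a change in 3 of the 20 copies, RNY4P10, RNY4P7 and RNY4P20, and 3 of these 3 were called. Among all 206694 GENCODE transcripts 5 hold those 30 bases (0.00242%): RNY4, these 3 copies and 1 transcript named RF00019. Bases 11 to 30 of RNY4 occur unchanged in 8 copies, of which 6 were called, with log2 fold changes from 0.021 to 1.39 and a median of 0.71. The 2 that were not called are RNY4P14 (log2 fold change 0.021, edgeR adjusted p = 0.973) and RNY4P6 (0.26, adjusted p = 0.518), the latter 95.8% identical to RNY4 overall. Of the 12 copies in which those bases are not all unchanged, 9 were tested and 0 were called. Their log2 fold changes ran from -0.27 to 0.17, with a median of 0.072. Among these 9, RNY4P25 holds bases 12 to 35 of RNY4 unchanged and RNY4P28 bases 10 to 27. The split therefore depends on where the stretch is cut. RNY4P10 and RNY4P7 may share reads, and RNY4P16 had counts near those of a Y_RNA row, so the called copies need not be separate signals. Over all tested features 5.34% were called higher.

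Bases 72 to 91 of RNY4, the 20 bases before its terminal run of T, occur unchanged in 4 copies: RNY4P25, RNY4P18, RNY4P28 and RNY4P27. Of these, 1 was called, RNY4P27, which also holds bases 3 to 42. The log2 fold changes of RNY4P25, RNY4P18 and RNY4P28 were 0.17, 0.10 and 0.072. Overall identity to RNY4 was 77.9 to 92.7% in the called copies and 86.5 to 95.8% in the tested copies that were not called, so the ranges overlapped. These stretches were chosen after the values were seen, so they are given as a description with no test. The table holds 1 count per row and no position of reads within a row.

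**Figure D5:**
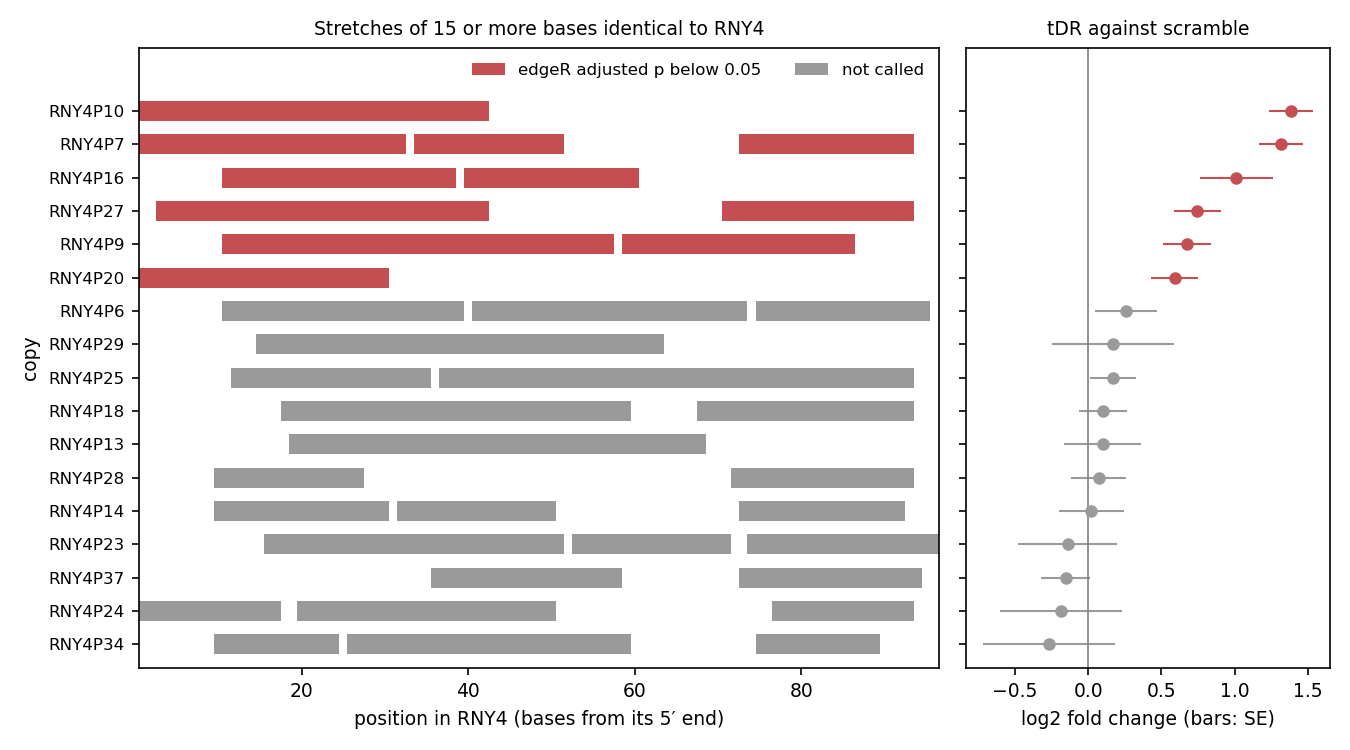
Left, stretches of at least 15 bases of RNY4 (x axis, bases from its 5′ end) that occur unchanged in each of the 17 tested copies (y axis). Right, the log2 fold change of the same copy with its SE; red marks copies called by edgeR. The 6 red copies are at the top, and each holds bases 11 to 30 of RNY4, as do the uncalled RNY4P6 and RNY4P14.

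RNY4P10 was also set against its gene within libraries, a comparison that did not pass after adjustment. Its ratio to RNY4 was 0.332, 0.300, 0.304 and 0.341 in the scramble libraries and 0.5002, 0.535, 0.460 and 0.458 in the tDR libraries, with no overlap. The log2 difference was 0.61 (exact permutation p = 0.0286, the smallest possible, and 0.0857 adjusted over the 3 parents with copies). At that smallest p, 1 ratio among 3 cannot pass the adjustment unless another ratio also reaches it. In CPM, the mean of RNY4 was higher by 337 and that of RNY4P10 by 248 in the tDR libraries. The RNY4 value less that of RNY4P10 was 310.1, 367, 362 and 284 CPM in the scramble libraries and 389, 422, 445 and 420.3 CPM in the tDR libraries. The sources used here do not give how a read that matches both rows was counted, so this difference is arithmetic and not a count of reads unique to RNY4.

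Of the 9 copies of RNY1, 6 were tested, 1 was called higher and 0 lower, beside 5.34% and 1.36% of all tested features. An unadjusted p below 0.05 was reached by 1 copy in all. RNY1P7 (chromosome 13, 24703556 to 24703665), in an intron of ATP12A on the opposite strand and 84.5% identical to RNY1, had 7.75, 9.29, 12.8 and 14.7 CPM in the scramble libraries and 17.4, 25.4, 18.2 and 18.3 CPM in the tDR libraries. The groups did not overlap, and the log2 fold change was 0.83 (SE 0.22) with an edgeR adjusted p of 0.0265. RNY1P7 did not pass when scramble library 1, 2 or 3, or tDR library 2, was removed (edgeR adjusted p 0.0559 to 0.105), nor under total-count scaling (0.106) or with TMM factors taken without Y RNA rows (0.0717).

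The more abundant RNY1 copies did not pass. RNY1P13 had 123, 126, 141 and 142 CPM in the scramble libraries and 156, 188, 131 and 139 CPM in the tDR libraries (log2 fold change 0.20, SE 0.15, edgeR adjusted p = 0.479). RNY1P12 and RNY1P5 had log2 fold changes of 0.22 and -0.31 (edgeR adjusted p = 0.447 and 0.262), and the sign of RNY1P5 turned under scaling on microRNAs alone. The ratio of RNY1P13 to RNY1 overlapped between groups, at 0.253 to 0.333 and 0.234 to 0.301 (log2 difference -0.14, exact permutation p = 0.257, adjusted p = 0.257).

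Of the 11 copies of RNY3, 7 were tested and 0 were called in either direction, beside 6.7% of all tested features. At an unadjusted p below 0.05 there were 2, both lower, and DESeq2 and limma-voom called 0. Their log2 fold changes ran from -0.63 to 0.082 with a median of -0.18, 6 below 0 and 1 above, while the groups did not overlap in 2, both lower (5.51% of all tested features did so in that direction). RNY3P1, the most abundant of them, had 213, 212, 208 and 174 CPM in the scramble libraries and 168, 202, 204 and 217 CPM in the tDR libraries. The groups overlapped, and its log2 fold change was -0.025 (SE 0.15) with an edgeR adjusted p of 0.939, of either sign by scaling.

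RNY3P1 was not shown to differ from its gene. Its ratio to RNY3 was 0.449, 0.480, 0.472 and 0.487 in the scramble libraries and 0.443, 0.466, 0.443 and 0.475 in the tDR libraries, a log2 difference of -0.047 (exact permutation p = 0.2, adjusted p = 0.257). RNY3P2 and RNY3P8, with nearly equal counts, had log2 fold changes of -0.15 and -0.18 (edgeR adjusted p = 0.61 and 0.523), above 0 under scaling on microRNAs alone. RNY3P7 and RNY3P13, at 6.23 ± 1.39 and 22.5 ± 2.54 CPM in the scramble libraries and 4.09 ± 0.248 and 16.3 ± 3.82 CPM after the tDR mimic (SD, n = 4 each), had log2 fold changes of -0.63 and -0.46 (edgeR adjusted p = 0.144 and 0.173).

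Near-equal counts tied some members to other rows. Rows were taken as sharing reads when no library showed them more than 10% or 3 counts apart. By that measure, 4 members matched another RNY row and 5 matched a row named Y_RNA, among them RNY4P16 and RNY4P25. Of the 44 members 26 lie within another annotated gene, 1 of them overlapping an exon, and for the RNY4 copies the number is 12 of 20. Of the 6 called RNY4 copies 3 lie in an intron, 1 on the strand of its host gene.

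Other genes read by RNA polymerase III were compared as a group. The Y RNA genes have an upstream promoter, as do the genes of U6, U6atac and 7SK snRNA and of the RNase P and MRP RNAs. Of 9 such genes 1 was called higher and 0 lower, beside 5.34% and 1.36% of all tested features. Their log2 fold changes had a median of -0.081, while that of all tested features was 0.020. The value -0.081 is that of RNU6-2, and RNU6-1, RNU6-2, RNU6-7, RNU6-8 and RNU6-9 are all U6 genes. RNU6-7 and RNU6-8 had near-equal counts, 3456 and 3457 in scramble library 1, and may share reads. The 9 rows therefore need not be separate signals. The called gene was RMRP, which encodes the RNA of RNase MRP, an enzyme of rRNA processing, at 63.1 ± 6.80 CPM in the scramble and 96.8 ± 9.32 CPM after the tDR mimic (SD, n = 4 each, log2 fold change 0.62, SE 0.14, edgeR adjusted p = 0.0119). RNU6-1, a U6 gene, had a log2 fold change of -0.080 (edgeR adjusted p = 0.8293). Of 7 other RNA polymerase III genes, among them the 7SL, 5S, vault and BC200 RNAs, 0 were called, with a median of -0.24. At an unadjusted p below 0.05 the lower ones were RNU6ATAC in the first group (log2 fold change -0.48, edgeR adjusted p = 0.0662) and VTRNA1-1 in the second (-0.29, adjusted p = 0.229). The abundant ones, RNA5S1 and RN7SL1, had log2 fold changes of -0.079 and -0.18 (edgeR adjusted p = 0.812 and 0.643). The signs of RNU6-1, RNA5S1 and RN7SL1 turned under scaling on microRNAs alone, and the call of RMRP was lost under total counts (adjusted p = 0.0737).

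Outside the Y RNA rows, the 3 features whose level went most like that of RNY4 were copies of the U2 snRNA gene. Over log2 CPM in the 8 libraries and among 761 features with a mean count of at least 100, RNU2-61P, RNU2-33P and RNU2-7P had Pearson r of 0.989, 0.987 and 0.986 with RNY4. The 8 points share their library and its scaling, and the 2 groups stand apart in RNY4, so these values describe likeness and carry no test. Rows that may share reads were not merged for this ranking, so the 3 need not be separate signals.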

How the data were processed

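Per its values, the deposited raw table gives counts, whole numbers for each small RNA feature. A second deposited table holds a normalized signal, the counts divided by a factor per library that differs for tRNA features. The submitters' processing notes name hg38. The aligner, counter and annotation were not stated there or in the labels. Rows scr and scr2 stayed out of library sizes and tests. Replicate libraries differed beyond counting noise in 12 of 12 pairs (chi-square per degree of freedom 15.6 to 138). Among the tDR libraries it was 15.6 for libraries 3 and 4 and 83.9 to 138 for the pairs with library 1 or 2. The scramble pairs ran from 15.8 to 74.4.

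All 2962 features were fitted with edgeR 4.0.16 (R 4.3.3): filterByExpr, TMM, robust quasi-likelihood F test, no covariates, Benjamini-Hochberg over 1761 tested features. The fit was also run on counts simulated from its own means and dispersions, with libraries drawn independently. That run cannot show how shared reads or dependence between libraries act, and its outcome is not reported here. SE is the log2 fold change over the square root of F. Ratios of copy to gene used a pseudocount of 0.5 and scipy 1.17.1. Copies were aligned with Biopython 1.88; the sequence of RNY3 is not reported here. Coordinates are GENCODE release 29, for RNY5 RefSeq (GRCh38.p14). Alternatives used DESeq2 1.42.0 and limma 3.58.1.

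Named members were the 4 genes, every called copy, the 3 most abundant copies per parent, and for comparison called or abundant RNA polymerase III genes; RNY3P7, RNY3P13, RNY4P6, RNY4P14, RNY4P18, RNY4P28, RNU6ATAC and VTRNA1-1 were named after their values were seen. Members, lists and tests were chosen with earlier results of these data known.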

Additional observations from a re-analysis of the deposited data

Results flagged for a closer look

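Among 62 groups of 4 libraries checked, 4 had 1 library far from the other three; chance gives about 1 in 20. RNY1P7 stood at 25.4 CPM in tDR library 2, against 17.4 to 18.3 CPM in the other tDR libraries. RNY3P1 stood at 174 CPM in scramble library 4, against 208 to 213 CPM. RNY4P20 stood at 55.1 CPM in scramble library 1, against 45.0 to 45.3 CPM. The RNY4 to RNY3 ratio was 0.98 in scramble library 1, against 1.18 to 1.21, and without that library the log2 difference between groups was 0.67.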

How the results depend on the processing

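The calls of RNY4 and RNY4P10 kept their direction and their side of the threshold under 20 of 20 alternatives, and those of RNY4P7 under 19 of 19. The 8 higher calls, 7 of them RNY4 and its copies, became 3 and 3 under total counts and 3 and 3 with the replicate block (2.16% of all features higher), and ran from 4 to 8 and from 4 to 7 when 1 library was left out; lower calls were 0 throughout. Same-numbered libraries did not deviate together (correlations from -0.34 to -0.12), so the numbers were not taken as pairs. The log2 fold change of RNY3 was -0.13 under total counts, -0.11 with TMM without Y RNA rows and -0.022 over features averaging 50 counts or more, and ran from -0.074 to 0.076 with 1 library left out. That of RNY3P1 was 0.33 on microRNAs alone, 0.021 on the deposited normalized values and 0.028 with the authors' factors (an alternative chosen after seeing the data), and ran from -0.10 to 0.048 with 1 library left out. Scaling on microRNAs alone moved the median of all features to 0.36, and gave 0.027 for RNY1P5, 0.16 for RNY3P2, 0.14 for RNY3P8, 0.17 for RN7SL1, 0.24 for RNA5S1 and 0.24 for RNU6-1. With 1 library left out RN7SL1 ran from -0.28 to 0.019 and RNU6-1 from -0.18 to 0.0098. The log2 ratio differences ran from -0.37 to -0.24 for RNY3 to RNY1, 0.38 to 0.52 for RNY4 to RNY1, 0.67 to 0.80 for RNY4 to RNY3 and 0.44 to 0.62 for RNY4 to RNY5 with 1 library left out, where the smallest exact permutation p is 0.0571 and none can pass. As pairs (replicate block by sign flips, smallest exact p 0.125) the differences were -0.31, 0.43, 0.74 and 0.53, each with adjusted p = 0.15. Apart from fewer libraries, the causes were not tested. In the libraries, a count of 0 leaves room for 3 counts, 2.93e-05 to 7.47e-05% of the total.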
